A study of Mus musculus with 24 samples.

Results

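Transcripts of endothelial cells sorted from leg muscle were compared between galectin-3 knockout (KO) and wild-type (WT) mice kept on chow, on 6 single-colour arrays, 3 of each strain, out of the 24 arrays of the study. The 6 arrays were chosen by their titles, which give the strain, the diet, the tissue and a trial number from 1 to 3. KO mice carried B6.Cg-Lgals3tm1Poi/J, a targeted deletion in the galectin-3 gene (Lgals3) that takes the initiating codon, and WT mice were C57BL/6J. All were males fed chow with 12% of its calories from fat for 8 weeks, which differs from the high-fat diet (HFD, 60%) of the other muscle arrays. Both lines were bred for the study, so the control mice are a separate line. Each array carried amplified RNA from sorted leg muscle cells, live, positive for CD105 (endoglin) and negative for CD45, about 10000 per sample. The cells of an array were pooled from several mice, and each trial was an independent experiment, so that each value is that of a pool and the spread between arrays of a strain is the spread between trials.

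Galectin-3 is a lectin that binds beta-galactoside sugars on glycoproteins and is abundant in macrophages. It takes up advanced glycation end-products and shapes cell adhesion and inflammation. The endothelium of muscle capillaries passes glucose, insulin and fatty acids to the fibres, and its transcripts are marked by receptors for vascular growth factors, junction proteins and fatty acid carriers.

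The values below are log2 of the processed spot signal over the 75th percentile of its array, so that 0 is the signal of that percentile and a difference of 1 is a doubling. The KO and WT arrays of a trial lay on 1 slide, each trial had its own slide, and the slide of trial 1 was scanned in another session than those of trials 2 and 3. A probe was tested where it was well above background on all 3 arrays of at least 1 strain. This held for 24670 probes, and 13182 genes were read on the brightest of their tested probes. Between 59.8% and 73.3% of spots were well above background on the 6 arrays and 0 spots were saturated. The number of arrays, 3 per strain, limits the precision of every value.

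The sorted RNA carried endothelial transcripts on both strains' arrays. All 20 endothelial marker genes were well above background on all 6 arrays, and the median of their log2 differences of KO over WT was 0.01. Endoglin (Eng), the sorting antigen, lay at 4.31, 4.87 and 4.43 in WT and at 4.42, 4.91 and 4.31 in KO in trials 1, 2 and 3. The VEGF receptor Kdr differed by 0.02 (standard error 0.18), and the tight junction gene Cldn5 by −0.15 (standard error 0.22). Of the 13 tested genes that mark muscle capillaries, such as the fatty acid carriers, 0 had a limma p under 0.05 before adjustment. Over all genes that share was 3.23%, so a count of 0 among so few does not show that the strains match. The median difference of the 13 was 0.07. RNA of other cells was also present. The summed linear levels of the pericyte and smooth muscle markers were 148.5 to 201 in WT and 144 to 204 in KO. Those of the fibroblast markers were 94.3 to 183 in WT and 107 to 235 in KO. Fibre transcripts were well above background on all 6 arrays for 19 of 20 marker genes. The transcript of CD45 (Ptprc), against which the cells were sorted, was dim, at −4.01, −9.38 and −7.39 in WT and −3.39, −5.35 and −4.82 in KO, and was well above background on 1 WT array and 3 KO arrays. Of the 17 macrophage markers 10 were tested, with a median difference of −0.12 and summed levels of 2.47 to 17.9 in WT and 2.47 to 15.1 in KO, against 921 to 1011 and 878 to 1068 for the endothelial markers. The macrophage genes Cd68 and Adgre1 did not pass the filter on dim probes. Of 11 leukocyte markers 5 were tested, 4 of them with a higher mean in KO. An unadjusted p under 0.05 was found for 0 of the 5, beside 3.23% of all genes. Only 2 of the 5 were well above background on all 6 arrays. Ptprc was tested only through its KO arrays, so the filter itself favours a higher level in KO. The median difference of the 5 was 1.25, the highest of the 39 lists, with 0.51, 0.80 and 2.57 in trials 1, 2 and 3. Their summed level was 0.223 to 0.896 in WT and 0.377 to 1.37 in KO.

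The probe for the deleted gene did not separate the strains. Lgals3 lay at 4.77, 4.98 and 4.31 in WT and at 5.08, 5.12 and 4.64 in KO in trials 1, 2 and 3, among the bright probes on every array. KO was the higher strain in each trial, by 0.26 on the mean (standard error 0.26, limma adjusted p = 1.00). The position of the probe within the gene was not analysed here, so this value checks neither the deletion nor the labels, and KO and WT are used as the arrays are labelled. The paper reports its own checks of the deletion in DNA, RNA and protein, with no product in KO from primers inside the deleted region. Most other galectins had small differences. Lgals1, a dimeric galectin of endothelium and muscle, had the same mean in both strains to within 0.01 (standard error 0.28), Lgals8 differed by 0.10 (standard error 0.22), Lgals9 by −0.09 (standard error 0.48) and Lgals4 by −0.19 (standard error 0.43). Lgals3bp, which encodes a secreted galectin-3 binding protein, differed by −0.15 (standard error 0.24). The galectin-like gene Lgalsl was 0.60 higher in KO (standard error 0.24, limma adjusted p = 1.00). It was the only 1 of 7 tested members of the galectin list with an unadjusted p under 0.05, beside 3.23% of all genes.

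Few probes separated the strains after adjustment. With limma and Benjamini-Hochberg adjustment over all probes, 2 of 24670 (0.00811%) were called at an adjusted p under 0.05, both higher in KO, and 979 had an unadjusted p under 0.05. The first is a probe for a transcript that the array lists as TC1668068, with no gene symbol in the gene table used. It lay at −4.57, −3.85 and −4.16 in WT and at 0.80, 1.33 and 0.94 in KO. The groups were far apart, with a difference of 5.21 (standard error 0.27, adjusted p = 0.0129) that was between 5.10 and 5.36 in each trial, or 37.1-fold. The second is Sirpb1b, which encodes a signal-regulatory protein of the immunoglobulin superfamily that myeloid cells carry. The part of leukocyte RNA in its difference was not tested. It was not well above background on any WT array (−7.62, −8.12 and −7.50) and was on all 3 KO arrays (−4.13, −3.79 and −3.58). Where a WT value lay under the dimmest probe that its array still measured well above background, that probe's signal was used in its place. On this bound Sirpb1b was 5.35-fold higher in KO. The bound is approximate, since the limit of detection differs between probes. The adjusted p of 0.0340, like that of other genes given on this bound, is that of limma on the values as measured. Sirpb1b and those genes were tested only through their KO arrays, so the filter itself favours a higher level in KO. Genes of the Sirpb1b family are near copies of each other, so which of them its probe measures is uncertain. Neither call held with the trial as a block (adjusted p = 0.0709 and 0.192), where 0 probes were called and 2198 had an unadjusted p under 0.05. With any 1 array left out, the call of TC1668068 held only without WT array 1 (adjusted p = 0.0495), and that of Sirpb1b in none of these fits. With normexp background correction and with quantile normalization, TC1668068 was called (adjusted p = 0.00109 and 0.00889). Sirpb1b was called with quantile normalization (adjusted p = 0.0367) but not with normexp.

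Next in order were Acin1 and Ifi44l, named here after their values had been seen. Ifi44l, an interferon-induced gene, was not well above background on any WT array (−8.40, −9.51 and −7.54) and lay at −2.65, −2.52 and −2.38 in KO. On the same bound it was 13.3-fold higher in KO (adjusted p = 0.0548 for the values as measured). With quantile normalization or normexp background correction it was called (adjusted p = 0.000780 and 0.00316). A second, dimmer Ifi44l probe, well above background on 1 of 3 WT arrays and all 3 KO arrays, had a difference of 2.69 (adjusted p = 0.101), which rests in part on values at background. The list of interferon-stimulated genes, which does not hold Ifi44l, had a median difference of −0.04. Of its 23 tested genes, 0 had an unadjusted p under 0.05, beside 3.23% of all genes. Whether these shares differ was not tested. The paralogue Ifi44 had ratios of −2.61, 0.98 and 0.48 in trials 1, 2 and 3. Acin1, a nuclear protein tied to splicing and encoded on chromosome 14, was 3.33 lower in KO on 1 probe, with WT at 0.82, 0.09 and 0.56 and KO at −2.93, −2.94 and −2.65 (adjusted p = 0.0516). The 3 Acin1 probes disagreed in size, with differences of −3.33, −1.37 and −0.35, the last on the brightest.

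**Figure D1:**
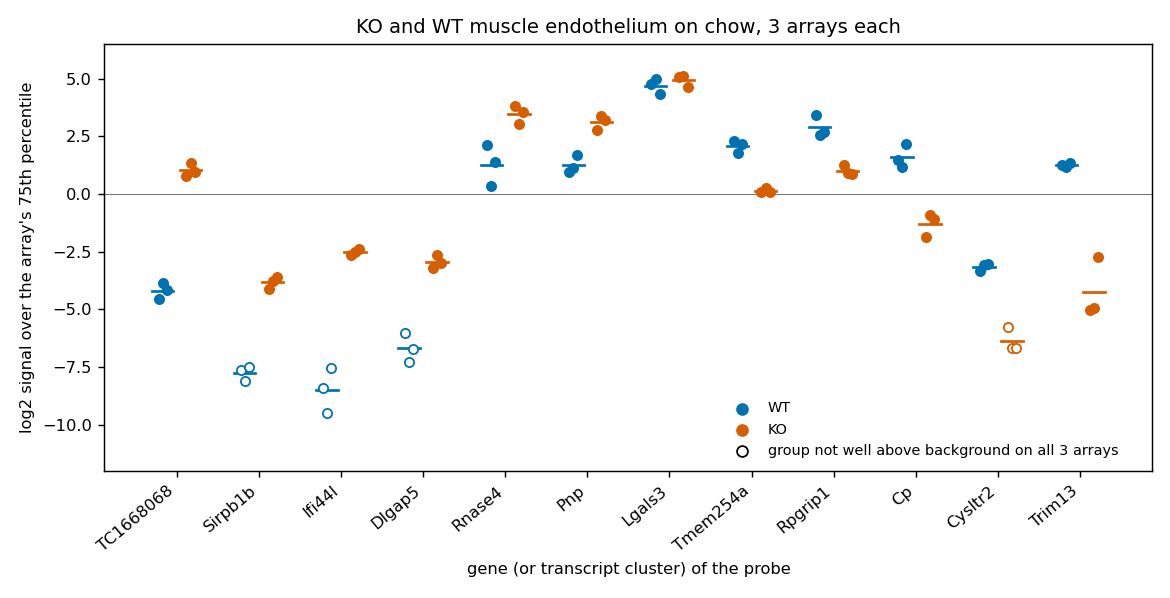
Log2 signal over the array's 75th percentile (vertical axis) for 12 probes, with 3 WT (blue) and 3 KO (orange) arrays each. Horizontal bars are group means, and open symbols mark a group that was not well above background on all 3 arrays. The strains overlap at Lgals3 and do not overlap at the other 11 probes, and TC1668068 is about −4 in WT and about 1 in KO. Over all tested genes, the strains did not overlap for 7.97%.

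Chromosome 14, which carries Lgals3, held a larger share of the genes that differed by a wide margin in every trial than any other chromosome did. A log2 ratio of KO over WT above 1 in all 3 trials was found for 41 genes (0.311% of those tested) and below −1 in all 3 for 37 (0.281%), which makes 78 genes. In single trials, 9.93%, 11.3% and 8.67% of the tested probes were past 1 in either direction, and over all probes the ratios of any pair of trials correlated by between 0.147 and 0.197. Of the 78 genes, 16 lie on chromosome 14. That is 3.56% of the 450 genes tested there, beside 0.487% of the 12732 genes tested on all other chromosomes, where the X chromosome came next with 0.955%. The share was 3.66% of the 246 genes within 20 Mb of Lgals3 and 3.43% of the other 204 of the chromosome. Before adjustment, 44 genes of chromosome 14 (9.78%) had a limma p under 0.05, beside 3.00% elsewhere and 4.65% on chromosome 16, the next chromosome in that order. Among the 27 genes past 1 in all trials that were well above background on all 6 arrays, 11 lie on chromosome 14 and 16 on the others. The difference in share was not tested.

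**Figure D2:**
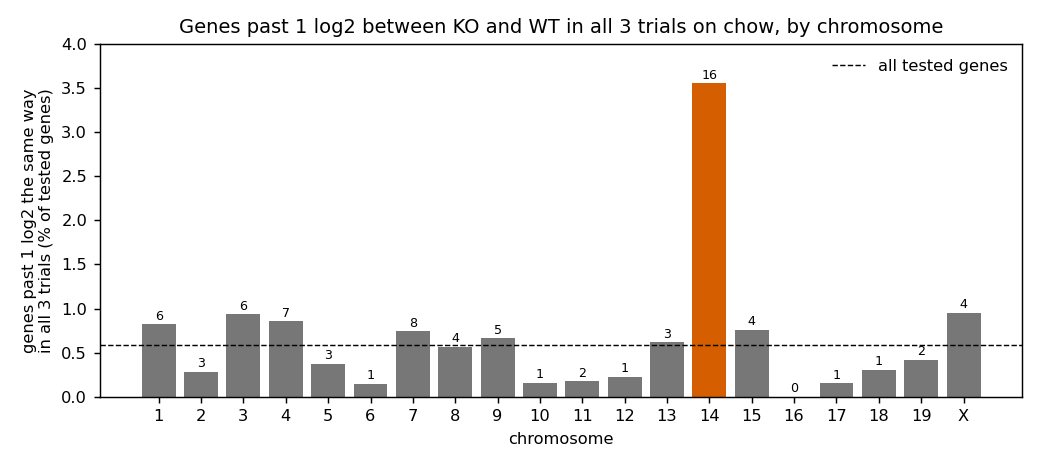
Share of the tested genes of each chromosome (vertical axis, %) with a log2 ratio of KO over WT above 1 in every chow muscle trial or below −1 in every one, with the number of genes above each bar. The dashed line is the share over all tested genes, 0.592%, and chromosome 14 stands at 3.56%.

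The chromosome 14 genes went in both directions, 7 higher and 9 lower in KO, and lay on both sides of Lgals3. The gene order and chromosomes are those of the RefSeq gene table for GRCm38.p6. Dlgap5, a mitotic spindle protein and the next tested gene after Lgals3, was not well above background on any WT array (−6.01, −7.29 and −6.72). It lay at −3.22, −2.65 and −3.01 in KO, 9.53-fold higher on the bound used for Sirpb1b (adjusted p = 0.101 for the values as measured). Wdhd1, a DNA replication factor and the third tested gene on the other side, was lower in KO, with −2.14, −2.93 and −2.19 in WT and −3.87, −4.49 and −5.06 in KO. The widest difference on the chromosome was that of Trim13, a ubiquitin ligase of the endoplasmic reticulum, which lay at 1.27, 1.18 and 1.33 in WT and at −5.05, −4.96 and −2.75 in KO, a difference of −5.51 (standard error 0.61, adjusted p = 0.179). Every Trim13 value in KO was at least 4.08 below the WT array of its trial. It was called with normexp background correction (adjusted p = 0.0306) and without KO array 3 (adjusted p = 0.0134).

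Between 22 and 38 tested genes after Lgals3 lie genes of secreted ribonucleases and of a purine enzyme. Rnase4 lay at 2.11, 0.32 and 1.39 in WT and at 3.82, 3.03 and 3.54 in KO, 2.19 higher (standard error 0.48). Rnase1, the pancreatic-type ribonuclease that endothelium secretes, was also 2.19 higher (standard error 0.30), from −3.33, −3.57 and −3.79 to −0.84, −1.75 and −1.53. The angiogenin Ang2 went the other way, from −4.05, −3.53 and −3.44 in WT to −5.24, −5.07 and −5.37 in KO. The difference of the angiogenin Ang4 was −1.16, and that of Ang itself was 0.14 (standard error 0.28). The angiogenins are near copies of each other, and signal that one probe takes from another's transcript cannot be told apart. Pnp, purine nucleoside phosphorylase, which splits inosine and guanosine, was 1.87 higher in KO, from 0.95, 1.11 and 1.68 to 2.77, 3.37 and 3.20. A little further on, Rpgrip1, a ciliary protein, was 1.89 lower, from 3.44, 2.56 and 2.68 to 1.23, 0.93 and 0.86. The histone chaperone gene Supt16 was 1.26 higher (standard error 0.26) and Bmp4, a growth factor that endothelium makes, was 1.09 lower (standard error 0.23), without passing 1 in every trial. Bmp4 lies 10 tested genes before Lgals3. Apart from Ang, the adjusted p of these genes was between 0.358 and 0.851.

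Genes with wide differences also lay farther from Lgals3. Tmem254a, a membrane protein, went from 2.28, 1.75 and 2.15 in WT to 0.07, 0.28 and 0.07 in KO (difference −1.93, adjusted p = 0.196), and its neighbour Plac9a was 1.45 lower. Both genes have near copies, and which copy each probe measures was not resolved. Cysltr2, a receptor for cysteinyl leukotrienes that endothelium carries, was 3.22 lower (adjusted p = 0.101), with 2 of 3 KO arrays well above background, and was called with quantile normalization (adjusted p = 0.0223). Rhobtb2 was 1.98 lower and Pcdh17, a protocadherin, 1.35 lower. The growth factor Fgf17 was 1.30 higher and the Rac regulator Arhgap22 2.01 higher, the latter well above background on 2 of 3 WT arrays. Epsti1, an interferon-responsive gene, was not well above background on any WT array and was 6.09-fold higher in KO on that bound. Of the 16 genes, 7 had more than 1 tested probe. All their probes gave the same direction, and for 3 of the 7 genes each probe was past 1 in all trials.

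**Figure D3:**
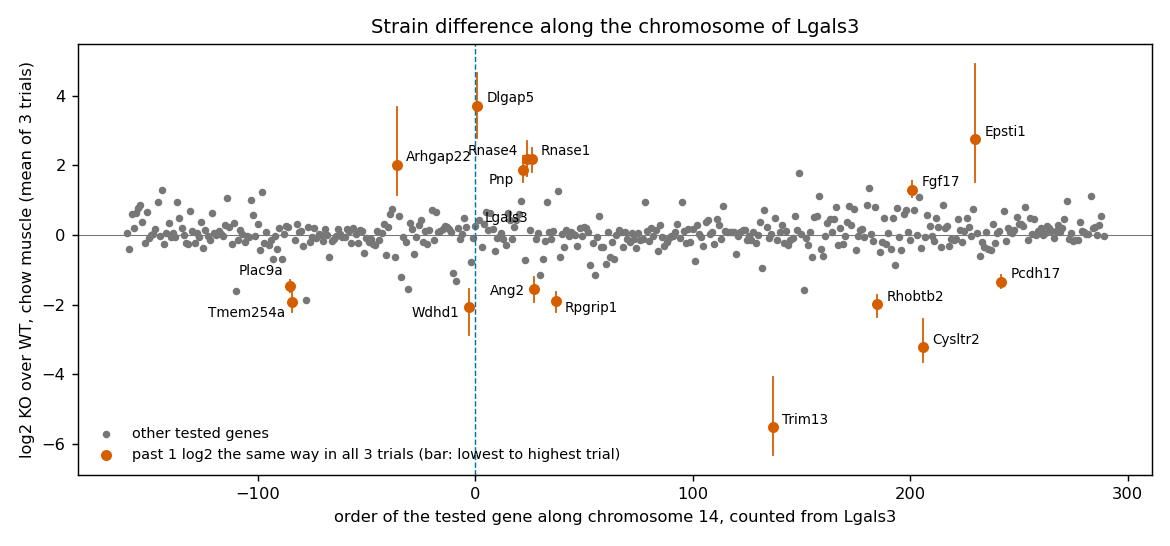
Mean log2 ratio of KO over WT in chow muscle (vertical axis) of the 450 tested genes of chromosome 14, in their order along the chromosome counted from Lgals3 (horizontal axis, dashed line at Lgals3). Orange points are the 16 genes past 1 in the same direction in all 3 trials, with bars from the lowest to the highest trial, and most of the grey points lie between −1 and 1.

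Off chromosome 14, ceruloplasmin had the strongest difference among genes well above background on all 6 arrays. Cp encodes the copper-carrying ferroxidase of plasma. It lay at 1.47, 1.17 and 2.17 in WT and at −1.86, −0.91 and −1.10 in KO, a difference of −2.89 (standard error 0.37, adjusted p = 0.309). The other 11 tested genes of iron and copper handling had an unadjusted p above 0.05, and the median of the list was 0.03. Over all genes, 3.23% had an unadjusted p under 0.05. Genes with a higher level in KO included Cyp2e1, a cytochrome P450 of fat and liver (2.07), Rbp4, the retinol carrier (1.92), Nhlrc1, a ubiquitin ligase of glycogen metabolism (1.67), the neuronal secreted protein Lgi2 (1.59) and the transcription factor Irf4 (1.53). Irf4 lay at −3.03, −3.08 and −3.72 in WT and at −1.61, −1.94 and −1.68 in KO. Genes with a lower level included Zcchc18 (−2.15), Upb1, an enzyme of pyrimidine breakdown (−1.83), the Notch target Hes5 (−1.64) and Neurl3 (−1.60). The lowest adjusted p of these 9 genes was 0.518, that of Irf4, and the values of the strains overlapped for Rbp4 and Hes5.

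Several targets of the glucocorticoid receptor were higher in KO before adjustment. This receptor, activated by corticosterone in mice, induces a set of genes that many tissues share. Of 11 tested targets, 4 were higher in KO at an unadjusted p under 0.05 and 0 lower, beside 1.86% and 1.37% of all 13182 genes, and 0 were called after adjustment. The median difference of the 11 was 0.49, beside 0.01 over all genes, and the median was 0.42, 0.52 and 0.32 in trials 1, 2 and 3. Fkbp5, a co-chaperone that damps the receptor, lay at −1.16, −1.73 and −0.50 in WT and at 0.03, 0.49 and 0.49 in KO (difference 1.47, standard error 0.35, unadjusted p = 0.00466, adjusted p = 0.814). All 3 of its tested probes were higher in KO, by 1.31, 1.47 and 1.47. The strains did not overlap on the brightest, which held for 7.97% of all genes. Tsc22d3, the leucine zipper gene known as GILZ, lay at 4.57, 3.96 and 4.44 in WT and at 5.26, 4.85 and 5.04 in KO, and Cdkn1a, an inhibitor of the cell cycle, was 0.49 higher. Hif3a was 1.63 higher on its brightest probe, while its other 2 probes gave 0.53 and −0.08. Klf9 was 0.65 higher and Pdk4 0.61 (unadjusted p = 0.0519 and 0.187), and Per1 0.23. Sgk1 and Mt2 differed by 0.03 and 0.04, Mt1 by −0.19, and the receptor Nr3c1 by 0.15. 

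Of 14 tested adipocyte markers, 2 were higher in KO at an unadjusted p under 0.05, beside 1.86% of all genes, and 0 were called after adjustment. Their median difference was 0.54, with 0.80, 0.11 and 0.84 in trials 1, 2 and 3, and 13 of them were well above background on all 6 arrays. Adipsin (Cfd), a complement protease of fat cells, lay at 2.94, 2.76 and 2.26 in WT and at 5.62, 2.83 and 4.86 in KO, and adiponectin (Adipoq), the hormone of fat cells, at −1.12, −1.53 and −2.22 in WT and 1.34, −1.33 and 0.24 in KO. In trial 2 the strains were close, with ratios of 0.08 and 0.19. The summed linear level of the 14 markers, in units of the array's 75th percentile, was between 70.1 and 87.9 on the WT arrays and between 98.4 and 167 on the KO arrays. The fibre markers were uneven between trials too, with a median ratio of 0.31, −0.50 and 1.42 in trials 1, 2 and 3 and summed levels of 57.1 to 216 in WT and 59.6 to 248 in KO. Cyp2e1 and Rbp4, which fat also expresses, had ratios of 3.06, 1.60 and 1.54, and of 1.52, 2.44 and 1.79. In such bulk samples, more cells of a type and more RNA per cell cannot be told apart, and the part of fat or fibre RNA in these differences was not tested.

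No transcript of the lists of growth factors, vascular tone and arterial genes was called after adjustment. An unadjusted p under 0.05 was found for 11.8% of the VEGF and angiopoietin list, 4.35% of the nitric oxide list and 7.14% of the arterial list. Over all genes it was 3.23%, and whether these shares differ was not tested. Of 17 tested genes of the VEGF and angiopoietin list, 2 were higher in KO at an unadjusted p under 0.05, beside 1.86% of all genes. The placental growth factor Pgf lay between −3.58 and −2.56 in WT and between −2.46 and −1.71 in KO, 1.03 higher (standard error 0.34), and with the trial as a block its unadjusted p was 0.00191. Vegfa was 0.65 higher on its brightest probe and lower on 2 dimmer ones (−0.94 and −1.15), so its direction depends on the probe. Of the 23 tested genes of nitric oxide and vasoregulation, Nos2, the inducible synthase, was 0.86 lower at an unadjusted p of 0.0449. The endothelial synthase Nos3 differed by −0.21 (standard error 0.25). The Notch target Hey2 was 0.81 lower, well above background on 3 WT arrays and 1 KO array, and the other 13 tested arterial genes had an unadjusted p above 0.05.

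No gene of the nutrient handling lists was called after adjustment. The counts below stand beside 3.23% of all genes with an unadjusted p under 0.05, and whether they differ from that share was not tested. The glucose carriers Slc2a1 and Slc2a4 differed by 0.09 (standard error 0.27) and 0.31 (standard error 0.38), and 0 of 21 tested genes of glucose entry and glycolysis and 0 of 22 of fatty acid uptake and oxidation had an unadjusted p under 0.05. Their medians were 0.07 and 0.11. In the insulin and IGF list, the binding protein Igfbp3 was 0.48 higher in KO (unadjusted p = 0.0419), 1 of 15 tested genes. In cholesterol synthesis, lanosterol synthase (Lss) was 1.54 lower (unadjusted p = 0.0129), 1 of 19. The 19 respiratory chain genes had a small, even shift, with a median of 0.135, 0.137 and 0.128 in trials 1, 2 and 3, and 0 of them had an unadjusted p under 0.05.

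Immediate early genes, which cell handling induces within minutes, had a lower median in KO in trial 1, which is 1 array of each strain. The median ratio of the 22 tested genes was −0.60 in trial 1, −0.06 in trial 2 and −0.0018 in trial 3. Nr4a1, an orphan nuclear receptor, and Ccn1, a matrix protein, were 0.84 and 0.75 lower in KO (unadjusted p = 0.0497 and 0.0420), with ratios in trials 1, 2 and 3 of −1.33, −0.87 and −0.32 and of −1.22, −0.71 and −0.33. Fos and Egr1 differed by −0.07 each. Of the remaining named genes, the clock repressor Nr1d1 was 1.29 higher on its brightest probe, with 0.11 and 0.22 on its other 2. The protease Adamts1 was 0.85 lower, the pericyte proteoglycan Cspg4 0.72 lower, and Anxa2, a surface receptor for plasminogen, 0.60 higher, each 1 gene of its list with an unadjusted p under 0.05. Over the 39 lists, 524 different genes were tested. Of these, 12 were higher and 8 lower at an unadjusted p under 0.05, together 3.82%, beside 3.23% of all genes, and 0 were called after adjustment, with a median difference of 0.04.

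**Figure D4:**
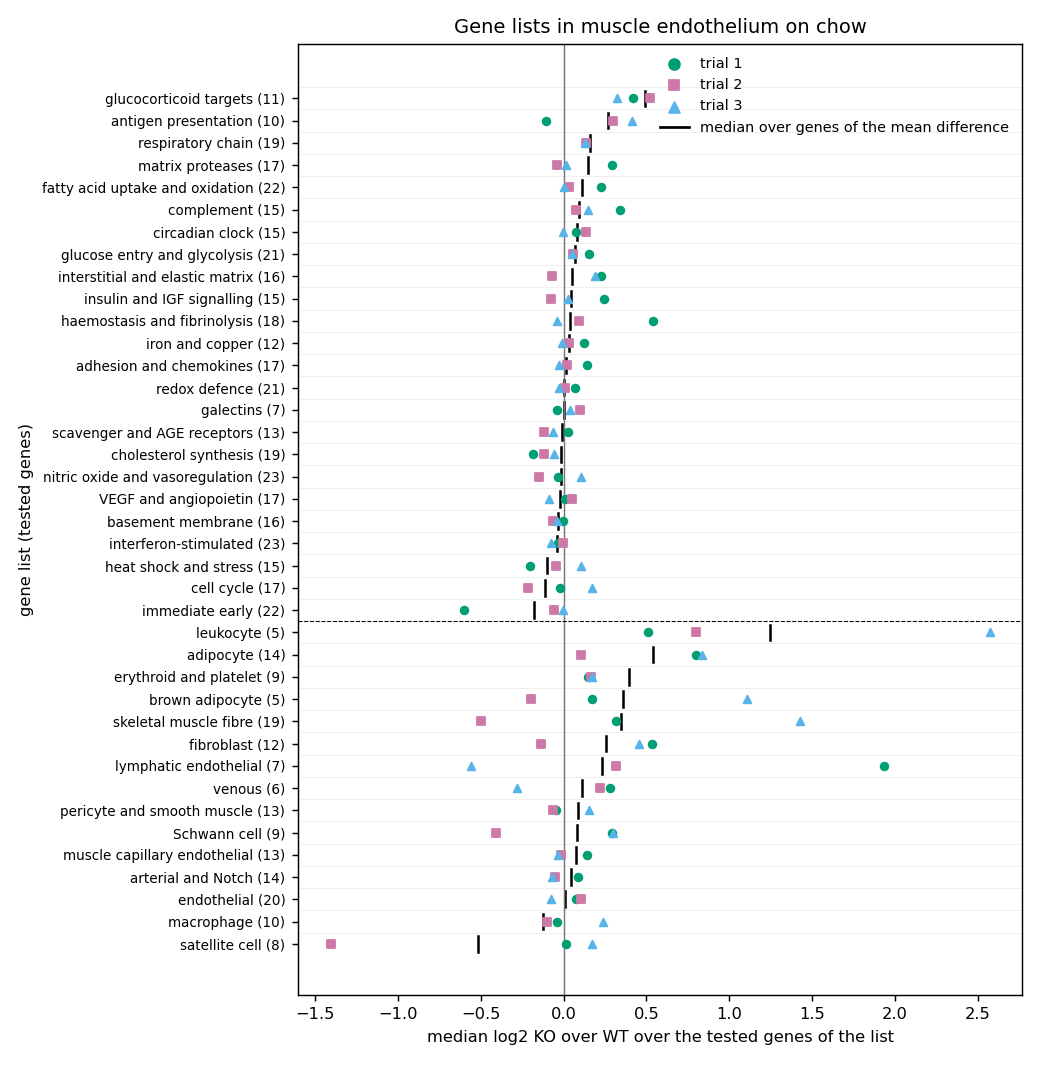
Median log2 ratio of KO over WT (horizontal axis) over the tested genes of each of 39 lists, given with their number, in trials 1, 2 and 3. The black bar is the median over genes of the mean difference, pathway lists are above the dashed line and cell type lists below it. The glucocorticoid targets have medians of 0.42, 0.52 and 0.32, and the endothelial markers lie near 0 in every trial.

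The other 18 arrays of the study allowed the same probes to be read in separate arrays of KO and WT, with 6 arrays each for muscle on HFD, aorta on chow and aorta on HFD. The HFD arrays of trial 1 stood apart. At the genes that separated the strains elsewhere, the arrays labelled KO and WT in that trial were close together in both tissues. Counts and tests with HFD arrays are therefore also given without that trial, a choice made after seeing the data. The aorta and muscle of a group were taken from the same mice, so the chow aorta is no new set of animals.

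Most differences on chromosome 14 had the same direction in the other arrays, the HFD arrays of trial 1 apart. Of the 11 chromosome 14 genes past 1 in all chow muscle trials and well above background on all 6 arrays, 10 and 11 had the same direction in trials 2 and 3 of muscle on HFD and 9, 10 and 10 in trials 1, 2 and 3 of the chow aorta. In trial 1 of muscle on HFD it was 4, with a median ratio, turned to the chow direction, of −0.02, beside 1.71 and 1.58 in trials 2 and 3. Of the 16 such genes on other chromosomes, 6 and 12 had the same direction in trials 2 and 3 of muscle on HFD, 3 in trial 1, and 10, 8 and 7 in the chow aorta. In trials 1, 2 and 3 of the aorta on HFD it was 7, 9 and 10 of the 11 genes on chromosome 14 and 5, 11 and 12 of the 16 on the others. The median turned ratio of the 11 was 0.23, 1.30 and 1.57 in these trials. Whether the shares differ between chromosome 14 and the rest was not tested. Trim13 had ratios of 0.02, −8.11 and −4.74 in muscle on HFD and of −5.63, −9.43 and −3.04 in the chow aorta. Cp had ratios of 0.06, −3.16 and −4.35 in muscle on HFD, and −4.79, −2.44 and −3.41 in the chow aorta. TC1668068 was −0.92, 5.50 and 7.96 in muscle on HFD and 4.72, 3.83 and 5.18 in the chow aorta. In the chow aorta, 3 of 24413 probes (0.0123%) were called, Ifi44l among them (adjusted p = 0.0225), while muscle on HFD and aorta on HFD gave 0 calls (0%), with 614 and 513 probes at an unadjusted p under 0.05. Without trial 1 both again gave 0 calls, with 1064 and 669 unadjusted.

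The Lgals3 probe, whose position in the gene was not analysed, also read higher in KO in these arrays. Its ratios were 0.70, 3.04 and 1.58 in muscle on HFD and 1.08, 2.29 and 1.52 in the chow aorta. They were 0.31, 0.14 and 0.33 in muscle on chow. Some differences were not repeated there. Sirpb1b had ratios of 0.96, 6.69 and −5.89 in muscle on HFD, where it was well above background on 2 of 3 arrays of each strain, and was on none of the 6 chow aorta arrays. Pnp had ratios of −0.74, 0.06 and 0.54 in muscle on HFD and of 0.44, 0.19 and −0.17 in the chow aorta. The Acin1 probe with the widest difference on chow had ratios of 0.38, −2.01 and 0.89 in muscle on HFD. In the chow aorta this probe had −0.12, −1.21 and −5.44. Its unadjusted limma p for a difference between diets in muscle was 0.00270, and it was not called. Rbp4 had ratios between −1.76 and 0.37 in them, and Irf4 had both signs in each. Cyp2e1 was lower in KO in all 3 trials of muscle on HFD, with ratios of −0.19, −2.30 and −1.06.

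Tests of the difference itself gave no calls. Between chow and HFD, 0 of 25682 probes (0%) had a strain difference in muscle that differed at an adjusted limma p under 0.05, with 577 at an unadjusted p under 0.05, and without trial 1 it was again 0, with 820 unadjusted. Between muscle and aorta on chow it was 0 of 26160 (0%), with 805 unadjusted. The smallest adjusted p of the latter was 0.146, for Sirpb1b. No size is given for it, since the probe was well above background only on the 3 KO muscle arrays of the 12. Cyp2e1 had an unadjusted p of 0.00145 and Nhlrc1 of 0.00442 for a difference between diets, and of 0.00130 and 0.0233 without trial 1 (adjusted p = 0.993 and 1.00). At this number of arrays, a difference between diets or tissues that was not called is not shown to be absent.

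**Figure D5:**
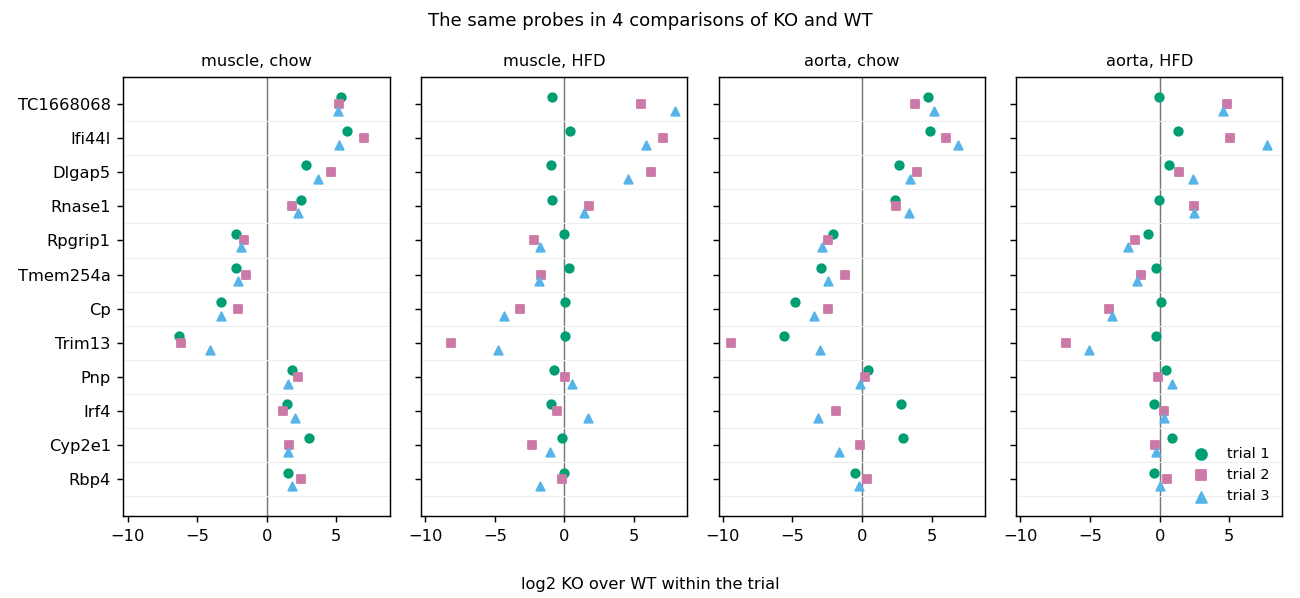
Log2 ratio of KO over WT within a trial (horizontal axis) at 12 probes in muscle on chow, muscle on HFD, aorta on chow and aorta on HFD, with trials 1, 2 and 3 as circles, squares and triangles. The first 8 probes keep their side in muscle on chow, aorta on chow and trials 2 and 3 on HFD, whereas trial 1 on HFD lies closer to 0 at most of them, and the last 4 are all above 0 in muscle on chow but not in the other panels.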

How the data were processed

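RNA of sorted cells was amplified, labelled with Cy3 and hybridised to Agilent arrays. The authors extracted spot intensities with Feature Extraction (version 10.5.1.1 per the file headers, 9.1 in the submitters' processing notes), which subtracted the background. The deposited series values in log2 of the same arrays served as an alternative. The processed intensity was divided by the 75th percentile of the non-control spots of its array and taken to log2, and spots of a probe were averaged. KO and WT were compared with limma 3.58.1 (R 4.3.3), without a block, and Benjamini-Hochberg adjustment over 24670 probes. Same-numbered KO and WT arrays deviated together (correlations over probes of 0.474, 0.365 and 0.339), and each number marks 1 independent experiment on 1 slide, so the trial as a block is given where it changes a call. P-values measure the spread between trials. Named were the galectins, called genes, the 10 widest differences each way among genes well above background on all 6 arrays and past 1 in every trial, up to 4 genes of a list by p, and up to 10 genes within 20 Mb of Lgals3. The other genes, among them Acin1, Ifi44, Ifi44l, Ang, Ang4 and the remaining chromosome 14 genes past 1, were chosen after their values were seen. One gene that this rule names is not reported here. Members and lists were chosen with earlier results of these data known. The fit was tested on simulated data. Alternatives were normexp background correction (offset 50, on the spot median, since these files have no spot mean), quantile normalization, the deposited log2 values, other filters, the block, all 12 muscle arrays, the methods' t-test and leaving out arrays or trials. Chromosomes and gene order are from RefSeq (GRCm38.p6). No coordinates are given, since the files name another build.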

Additional observations from a re-analysis of the deposited data

Results flagged for a closer look

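Of 85 features compared between chow muscle and each of muscle on HFD and the chow aorta, 8 had ratios of KO over WT on one side of 0 in all 3 trials of chow muscle and on the other side in all 3 trials of the other comparison. Against muscle on HFD these were Cyp2e1, where the differences were 3.25 apart, Rbp4 (2.56), Cdh5 (0.46) and Zcchc18 (−3.39). Against the chow aorta they were Arhgap22 (4.19), Pgf (1.70), Vegfa (1.07) and Hes5 (−3.55). Each was also tested as a difference of differences with limma, and none was called (adjusted p = 1.00 for each), with unadjusted p from 0.00145 for Cyp2e1 to 0.183 for Rbp4. The HFD ratios include trial 1, whose HFD arrays stood apart. Without it, Cyp2e1, Rbp4, Cdh5 and Zcchc18 had differences of differences of 3.25, 3.07, 0.45 and −4.10, with unadjusted p of 0.00130, 0.00267, 0.354 and 0.00586, and again none was called.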

How the results depend on the processing

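Of the 2 probes called in chow muscle, both higher in KO, the number became 4 with normexp background correction (2 higher, 2 lower) and 6 with quantile normalization (4 higher, 2 lower). It was 0 without a filter on dim probes (999 at an unadjusted p under 0.05), with the trial as a replicate block (2198), with all 12 muscle arrays in the fit (612) and by the methods' t-test after adjustment, which gave 1032 probes before it (594 higher, 438 lower). Leaving out a trial or 1 array gave from 0 to 2 calls. The 160 probes past 1 in all trials (80 each way) became 62 with normexp (36 higher, 26 lower), 295 without a filter (138 higher, 157 lower) and 50 where all 6 arrays had to be well above background (23 higher, 27 lower). With only 2 trials required, 572 to 919 probes passed. The difference of Lgals3 ranged from 0.073 to 0.41 when arrays or trials were left out and was not called in any fit. The comparisons between diets and tissues gave 0 calls in every setting run, with 1114 and 1600 probes at an unadjusted p under 0.05 with the replicate block. Among the alternatives of single named features, 1337 kept their result, 26 lost and 8 gained a call and 47 moved by more than the spread. For a feature without a call, a kept result means a difference within the spread between trials of the main value. A change of sign was counted only where there was a call, so these counts do not check the direction of the other features. Of the medians and counts of the gene lists, 913 values kept to the main value and 257 moved past the spread between trials or by over 1.5 times. The median over all probes was between −0.01 and 0.01 under every scaling. Dim probes have the least certain ratios, and 3 arrays a strain limit what can be called. Why these counts moved was not tested.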
